A study of Homo sapiens with 63 samples.

Results

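Homologous recombination and the Fanconi anaemia pathway were followed through the transcripts of 33 genes in small cell lung cancer (SCLC) lines exposed to veliparib, cisplatin or radiation. The genes were fixed by name, from the proteins that process broken ends, carry out strand invasion, repair interstrand crosslinks and take apart joined DNA molecules, and every array probe carrying 1 of these symbols was taken. Of the 33 genes, 29 had a probe (46 probes), and 27 genes with 40 probes passed a filter that asked for detection on at least 4 of the 63 arrays, against 15460 genes in all. RAD50 and FANCM had probes below the filter only, and BRCA2, RBBP8, FANCA and FANCD2 were not analysed here. Each gene was represented by its brightest probe.

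Homologous recombination copies the lost sequence of a broken chromosome from the sister chromatid, through resection of the ends and invasion of the intact duplex. The Fanconi anaemia core complex is a ubiquitin ligase that marks the FANCD2-FANCI clamp at interstrand crosslinks, a minority of the lesions that cisplatin makes. Veliparib (ABT-888) inhibits the poly(ADP-ribose) polymerases PARP1 and PARP2, and cells that lack homologous recombination are known to be sensitive to such inhibitors. Many genes of both pathways are transcribed mainly in the S and G2 phases of the cell cycle.

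The RNA came from 9 established human SCLC lines, 3 named DMS (DMS53, DMS114 and DMS153) and 6 named H (H69, H128, H146, H187, H209 and H526), and Illumina HT-12 v4 bead arrays were hybridised with 1 culture of each line per condition. In A5 and A50 the cells received veliparib alone, at 5 and at 50 µmol/L. The other conditions were cisplatin at a concentration chosen for each line from its IC50, from 0.4 µmol/L in H526 to 14.5 µmol/L in H128 (C+0), the same cisplatin with 5 µmol/L (C+5) or 50 µmol/L veliparib (C+50), 2 Gy of radiation (Rad), and vehicle (Con). The 9 lines were the replicates of every condition. Treatment p-values rest on how the change varied from line to line, not on differences in level between lines. With 1 culture of each line per condition, that variation cannot be separated from the spread between cultures of 1 line. According to the study's methods, the H128 stock did not match the published short tandem repeat profile of that line. The number of probes detected per array ran from 19124 to 22330 and overlapped between all conditions. Chromogranin, synaptophysin, INSM1, NCAM1, DLL3 and UCHL1 transcripts, which mark neuroendocrine cells, were detected on all 9 Con arrays, with the lowest signals in DMS114 for INSM1 (log2 signal 6.71, against 9.92 to 11.90 in the other lines). SCG2, another neuroendocrine marker, was detected on 8 Con arrays and was low in H128 (6.87) and H526 (7.02) as well as in DMS114 (6.56). DMS114 also had the highest Con signals for VIM, YAP1, REST, COL1A1, COL3A1, DCN and LUM. CAV1 (6.67 in DMS114, 6.73 in H128) and COL1A2 (6.57 in DMS114, 9.29 in H128) were highest in H128 instead. POU2F3, a tuft cell factor, was high in H526. None of the 8 neuroendocrine, 5 non-neuroendocrine and 5 fibroblast markers measured was called in C+50 against Con. Of the leucocyte markers, PTPRC and CD3E were each detected on 1 array, and 1 of the 2 that passed the filter (LYZ and CD68) rose in C+50. In such bulk RNA, a change in the share of cells of 1 state and a change in RNA per cell cannot be told apart.

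Cisplatin with 50 µmol/L veliparib changed 15 of the 27 genes relative to Con, 10 upward and 5 downward (55.6%), where 22.6% of all genes were called, 10.5% higher and 12.1% lower (limma, blocked by cell line, Benjamini-Hochberg adjusted p under 0.05 over all 30716 probes). The shares over all genes, here and below, are not matched for signal. The filter kept 30716 probes, while a median of 20692 were detected per array. Most of the 27 representing probes were detected on all 63 arrays, and how far this adds to their larger share was not tested. The changes were small. The strand-exchange motor RAD54L rose 1.29-fold and the strand invasion cofactor RAD51AP1 fell 1.37-fold, and these were the extremes. The median change over the 27 genes was 0.10 on the log2 scale, against 0.00 over all genes. Genes that rose and genes that fell stood side by side in most of the steps, as the plot of all changes shows. Among the genes that take apart joined molecules, 3 rose and 0 fell, and FANCI of the clamp was not called.

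**Figure D1:**
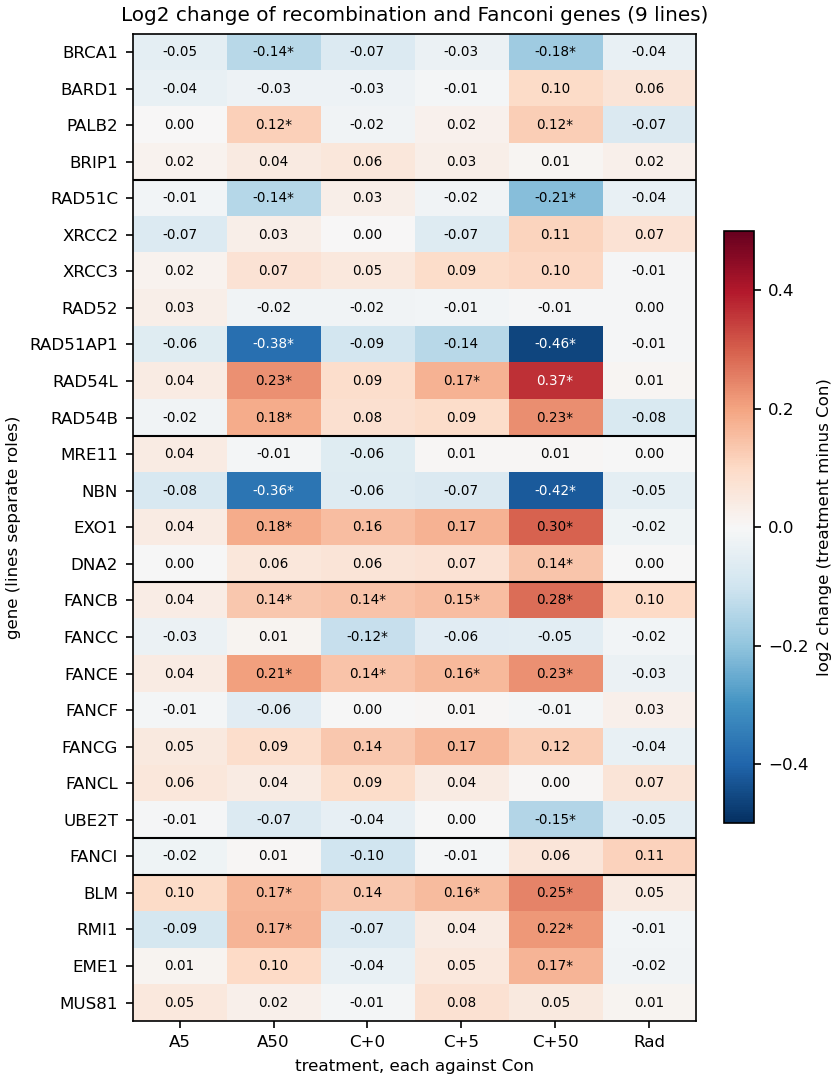
Log2 change against Con of the 27 measured genes (rows, grouped by role) in 6 treatments (columns), each the mean over 9 lines, with an asterisk where the limma adjusted p was under 0.05. The A50 and C+50 columns hold 12 and 15 called genes, the A5 and Rad columns none, and NBN and RAD51AP1 are the deepest falls in both veliparib columns at 50 µmol/L.

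Promoters of the 27305 genes in the RefSeq table (GRCh38.p14), taken as the 250 bases before the first listed start, were searched for 3 short motifs of cell cycle promoters on both strands. These were the E2F core (TTCCCGC, the variant TTCGCGC, the variant TTGCCGC and the variant TTGGCGC), the CCAAT box (CCAAT) and the cell cycle homology region (TTTGAA). A promoter was listed for 29 of the 33 genes, and not for RAD54B, NBN, DNA2 and FANCI. An E2F core was found in 9 of the 29 (31.0%), against 11.0% of all promoters, a CCAAT box in 13 (44.8%, against 33%) and TTTGAA in 3 (10.3%, against 13.6%). Among genes that rose in C+50, 3 of 8 with a promoter held an E2F core, against 1 of 4 among those that fell and 4 of 11 among those not called. The 3 promoters below are shown because each joins an E2F core to a CCAAT box, while RAD54L and BLM rose in C+50 and RAD51AP1 fell. They are written 5′ to 3′ on the strand of the gene, end at the base before the transcription start, lie upstream of the annotated gene, and carry both motifs in capitals.
RAD54L (chr1:46247438-46247687, plus strand): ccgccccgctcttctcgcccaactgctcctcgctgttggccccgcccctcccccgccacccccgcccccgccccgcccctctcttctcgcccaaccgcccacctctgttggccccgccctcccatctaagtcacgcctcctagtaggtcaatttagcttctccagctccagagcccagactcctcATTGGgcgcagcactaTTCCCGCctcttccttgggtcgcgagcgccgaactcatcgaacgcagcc
BLM (chr15:90717096-90717345, plus strand): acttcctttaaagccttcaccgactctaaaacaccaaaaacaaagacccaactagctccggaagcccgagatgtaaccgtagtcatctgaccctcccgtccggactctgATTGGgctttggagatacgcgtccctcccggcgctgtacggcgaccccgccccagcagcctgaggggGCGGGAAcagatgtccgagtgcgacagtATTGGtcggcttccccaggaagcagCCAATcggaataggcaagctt
RAD51AP1 (chr12:4538640-4538889, plus strand): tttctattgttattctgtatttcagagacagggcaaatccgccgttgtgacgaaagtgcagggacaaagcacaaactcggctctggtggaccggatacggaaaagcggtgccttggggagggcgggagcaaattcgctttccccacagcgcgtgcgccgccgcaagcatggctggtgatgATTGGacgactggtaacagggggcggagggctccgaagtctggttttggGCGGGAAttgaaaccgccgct
The E2F core began 49 bases before the start in RAD54L, 74 in BLM and 21 in RAD51AP1, and the CCAAT box nearest to it lay on its upstream side in RAD54L and RAD51AP1. A match is a run of letters and was not tested as a binding site.

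Among the factors of strand invasion, RAD54L and RAD51AP1 moved in opposite directions in C+50. RAD54L, a motor protein that drives strand invasion, had log2 signals from 8.11 to 9.51 (median 8.85) in C+50 and from 7.88 to 9.12 (median 8.55) in Con. It was higher in C+50 in all 9 lines, by 0.19 in DMS114 up to 0.75 in DMS53 (mean log2 change 0.37 ± 0.04, SE, adjusted p = 5.18e-10). RAD51AP1, which stimulates the invasion step, had signals from 9.03 to 12.02 (median 9.53) in C+50 and from 9.71 to 12.57 (median 10.08) in Con. It was lower in C+50 in all 9 lines, by −0.17 in DMS153 down to −0.91 in H69 (mean −0.46 ± 0.06, adjusted p = 3.58e-09). Lowest, median and highest all moved in the direction of the mean for both genes, while the groups overlapped. RAD54B, a homologue of RAD54L, rose by 0.23 ± 0.04 (adjusted p = 5.34e-06), in 9 of 9 lines. RAD51C, which acts in a complex with XRCC3, fell on all 3 of its probes that passed the filter (−0.21, −0.32 and −0.37, adjusted p at most 5.01e-06). XRCC2 (0.11) and XRCC3 (0.10), which work in complexes of the same kind, and the annealing protein RAD52 (−0.01) were not called.

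In break sensing and end resection, NBN fell and both long-range nucleases rose. NBN, the partner of MRE11 and RAD50 in the complex that first binds broken ends, had log2 signals from 7.69 to 8.76 (median 8.01) in C+50 and from 8.08 to 9.16 (median 8.48) in Con. Every line was lower in C+50, by −0.26 in H128 down to −0.53 in H69 (mean −0.42 ± 0.04, adjusted p = 1.12e-13). H209 was lowest and DMS114 highest in both groups, so that the order of the extreme lines was kept while the whole set moved down. A second, dimmer NBN probe also fell, by −0.08 (adjusted p = 0.0335). MRE11 did not follow NBN on its brightest probe (0.01 ± 0.04, adjusted p = 0.941). Its dimmer probes had mean signals of 7.49 and 7.22 in C+50 and of 7.57 and 7.24 in Con, and neither was called. RAD50 was detected on no array. EXO1, a nuclease that extends resection, had signals from 8.72 to 9.92 (median 9.39) in C+50 and from 8.50 to 9.57 (median 9.11) in Con. All 9 lines were higher, by 0.12 in H209 up to 0.60 in DMS153 (mean 0.30 ± 0.05, adjusted p = 7.94e-06). A second EXO1 probe also rose (0.23) and the remaining, dimmer one gave 0.01. DNA2, the other nuclease of that step, rose by 0.14 ± 0.03 (adjusted p = 0.00116).

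**Figure D2:**
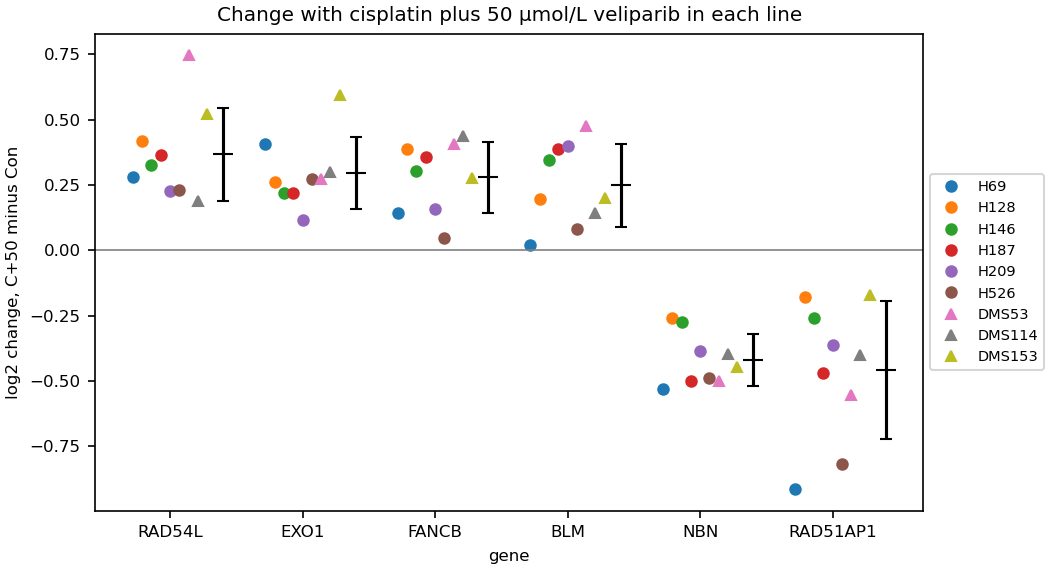
Log2 change of C+50 against Con (vertical axis) in each of 9 lines (coloured points, circles for H lines and triangles for DMS lines) for 6 genes, with the mean and SD over lines in black. All points of RAD54L, EXO1, FANCB and BLM lie above 0 and all points of NBN and RAD51AP1 below it, with H69 lowest for both falling genes and DMS53 highest for RAD54L and BLM.

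Of the Fanconi core complex, FANCB and FANCE rose in C+50. FANCB, a scaffold of the catalytic module, had log2 signals from 7.32 to 7.82 (median 7.57) in C+50 and from 6.97 to 7.53 (median 7.23) in Con. It was higher in all 9 lines, by 0.05 in H526 up to 0.44 in DMS114 (mean 0.28 ± 0.04, adjusted p = 3.75e-08). A second FANCB probe gave −0.03 (adjusted p = 0.695), so the rise rests on 1 of 2 probes, and the mean of both gave 0.13. The second probe was not called in A50 (−0.07), C+0 (−0.03), C+5 (0.01) or C+50 against C+0 (0.01) either. FANCE, which binds the FANCD2-FANCI clamp, rose by 0.23 ± 0.03 (adjusted p = 6.69e-07), with signals from 8.09 to 9.38 (median 9.09) in C+50 and from 7.88 to 9.29 (median 8.79) in Con. UBE2T, the ubiquitin-conjugating enzyme of the complex, fell in 9 of 9 lines, by −0.15 ± 0.04 (adjusted p = 0.00573). FANCC (−0.05), FANCF (−0.01), FANCG (0.12), FANCL (0.00), the catalytic subunit, and FANCI (0.06) were not called in this comparison.

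Of the proteins that separate joined molecules, BLM, RMI1 and EME1 rose and MUS81 (0.05) was not called. BLM, the helicase that dissolves double Holliday junctions, had log2 signals from 7.46 to 9.60 (median 8.24) in C+50 and from 7.26 to 9.52 (median 8.04) in Con. It was higher in all 9 lines, from 0.02 in H69 to 0.48 in DMS53 (mean 0.25 ± 0.04, adjusted p = 5.49e-06). RMI1, a structural partner of BLM, rose on both of its bright probes (0.22 and 0.27) and not on a dim one (0.01). EME1, the partner of the MUS81 endonuclease, rose by 0.17 ± 0.04 (adjusted p = 0.000979). Near the start of the pathway, the ubiquitin ligase subunit BRCA1 fell on both probes (−0.18 and −0.19), and PALB2, the bridge from BRCA1 to BRCA2, rose by 0.12 ± 0.04 (adjusted p = 0.00948). BARD1, the obligate partner of BRCA1, gave 0.10 and the helicase BRIP1 0.01, neither called. Under median scaling of the arrays in place of quantile normalization, 11 genes were called (7 higher, 4 lower), where 3.48% of all probes were higher and 6.9% lower, against 8.12% and 9.1% with quantile normalization. PALB2, DNA2, RMI1 and UBE2T no longer passed (adjusted p = 0.0903, 0.167, 0.0915 and 0.103).

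Veliparib alone at 50 µmol/L changed 12 of the 27 genes (44.4%), 8 upward and 4 downward, where 15.1% of all genes were called, 6.74% higher and 8.32% lower. RAD51AP1 fell by −0.38 ± 0.06 (adjusted p = 8.86e-07), with signals from 9.01 to 12.07 (median 9.67) in A50 and from 9.71 to 12.57 (median 10.08) in Con. It was lower in 8 of 9 lines, by −0.84 in H526, and H146 alone stood at 0.01. NBN fell in all 9 lines (−0.36 ± 0.04, adjusted p = 2.64e-11), with signals from 7.66 to 8.88 (median 8.12) in A50 and from 8.08 to 9.16 (median 8.48) in Con. BRCA1 (−0.14) and RAD51C (−0.14) fell as well. RAD54L rose in all 9 lines (0.23 ± 0.04, adjusted p = 4.38e-05), with signals from 8.13 to 9.38 (median 8.71) in A50 and from 7.88 to 9.12 (median 8.55) in Con. FANCE also rose in all 9 lines, by 0.21 ± 0.03 (adjusted p = 9.27e-06), with signals from 8.03 to 9.35 (median 8.97) in A50 and from 7.88 to 9.29 (median 8.79) in Con. EXO1 and RAD54B rose by 0.18 each (SE 0.05 and 0.04, adjusted p = 0.00836 and 0.00044), each in 8 of 9 lines. EXO1 had signals from 8.46 to 9.96 (median 9.17) in A50 and from 8.50 to 9.57 (median 9.11) in Con. RAD54B had signals from 7.97 to 8.86 (median 8.66) in A50 and from 7.80 to 8.64 (median 8.30) in Con. PALB2 (0.12), FANCB (0.14), BLM (0.17) and RMI1 (0.17) were the other genes that rose.

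The values in A50 depended on how the arrays were scaled, as did those of the whole array. With median scaling, none of the 8 rises passed the test (RAD54L 0.12 with adjusted p = 0.161, FANCE 0.09 with adjusted p = 0.354), although none changed sign. All 4 falls passed and were larger, at −0.49 for RAD51AP1, −0.46 for NBN, −0.26 for RAD51C and −0.25 for BRCA1, and UBE2T joined them (−0.20). The split was 0 higher and 5 lower with that scaling. Over all probes, 0.723% were higher and 11.5% lower with it, against 5.45% and 6.22% with quantile normalization, and the median was −0.03, so the loss of rises was shared by the whole array. Without H69, EXO1 in A50 gave 0.15 with an adjusted p of 0.0705.

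At 5 µmol/L, veliparib alone changed none of the 27 genes, and 0% of all genes were called (3 of the 27 had an unadjusted p under 0.05). The values with the largest size were 0.10 for BLM, −0.09 for RMI1 and −0.08 for NBN, with standard errors of 0.04. NBN was lower in all 9 lines at this dose too, though its adjusted p was 1.00.

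In cisplatin alone, the calls fell on the Fanconi core complex. It changed 3 of the 27 genes (11.1%), where 1.87% of all genes were called, 0.511% higher and 1.36% lower, and all 3 encode subunits of that complex. FANCE rose by 0.14 ± 0.03 (adjusted p = 0.015), with signals from 8.07 to 9.38 (median 9.03) in C+0 and from 7.88 to 9.29 (median 8.79) in Con. FANCB rose by 0.14 ± 0.04 (adjusted p = 0.0346), with signals from 7.16 to 7.71 (median 7.32) in C+0 and from 6.97 to 7.53 (median 7.23) in Con. Both were higher in 8 of 9 lines, with DMS114 the exception for FANCE (−0.01) and H526, which received the lowest cisplatin concentration, the exception for FANCB (−0.21). With the mean of both FANCB probes the change was 0.05 (adjusted p = 0.494), no longer called. FANCC, an adaptor of the complex, fell by −0.12 ± 0.03 (adjusted p = 0.0326), with signals from 6.56 to 7.19 (median 6.76) in C+0 and from 6.66 to 7.26 (median 6.88) in Con. It was among the dimmest of the measured probes, and a background correction (neqc) enlarged its change to −0.32. Without DMS53 or without DMS153 none of the 27 genes was called, without H146, H209, H526 or DMS114 1 was, and with median scaling FANCC alone was (0 higher, 1 lower, where 0.00977% of all probes were higher and 0.723% lower). BLM (0.14), EXO1 (0.16) and FANCG (0.14) had changes of similar size that were not called.

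With 5 µmol/L veliparib added, 4 genes rose and none fell (14.8%, where 2.41% of all genes were called, 0.796% higher and 1.61% lower). They were RAD54L (0.17 ± 0.04, adjusted p = 0.0134), FANCE (0.16 ± 0.03, adjusted p = 0.00363), BLM (0.16 ± 0.04, adjusted p = 0.0307) and FANCB (0.15 ± 0.04, adjusted p = 0.0142). RAD54L had signals from 7.98 to 9.49 (median 8.70) in C+5 and from 7.88 to 9.12 (median 8.55) in Con. FANCE had signals from 8.03 to 9.35 (median 9.02) in C+5 and from 7.88 to 9.29 (median 8.79) in Con, and BLM from 7.42 to 9.63 (median 8.05) in C+5 and from 7.26 to 9.52 (median 8.04) in Con. The RAD54L value leaned on DMS53, which rose by 0.73, and without that line it was 0.10 (adjusted p = 0.134). Only 1 gene, FANCE, was called without DMS53 or without DMS153, and 2 without H146. BLM lost its call without any of DMS53, DMS153, H146 and H209 (adjusted p from 0.0699 to 0.19). With median scaling none of the 4 was called, and 0.189% of all probes were.

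**Figure D3:**
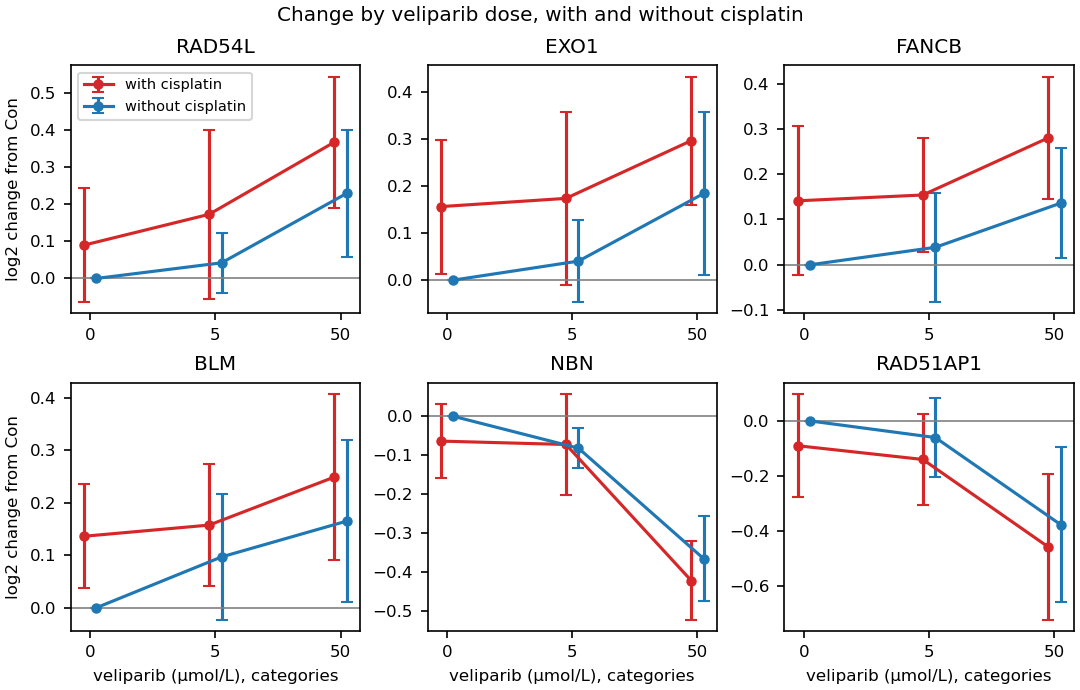
Mean log2 change from Con with SD over 9 lines (vertical axis) of 6 genes at 0, 5 and 50 µmol/L veliparib, with cisplatin (red) and without it (blue). NBN and RAD51AP1 lie between 0 and −0.14 up to 5 µmol/L and between −0.36 and −0.46 at 50 µmol/L with and without cisplatin, while BLM, EXO1 and FANCB are above 0 already with cisplatin alone.

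Adding 50 µmol/L veliparib to cisplatin (C+50 against C+0) changed 11 of the 27 genes (40.7%), 8 upward and 3 downward, where 15.2% of all genes were called, 6.9% higher and 8.3% lower. RAD51AP1 fell by −0.37 ± 0.06 (adjusted p = 1.55e-06), with signals from 9.03 to 12.02 (median 9.53) in C+50 and from 9.48 to 12.43 (median 10.00) in C+0. NBN fell by −0.36 ± 0.04 (adjusted p = 6.11e-11), with signals from 7.69 to 8.76 (median 8.01) in C+50 and from 8.02 to 9.13 (median 8.34) in C+0. RMI1 rose by 0.28 ± 0.04 (adjusted p = 1.63e-07), with signals from 9.10 to 10.48 (median 9.46) in C+50 and from 8.80 to 10.26 (median 9.18) in C+0. Each of these 3 moved the same way in 9 of 9 lines, though the levels overlapped. The other calls were RAD54L (0.28), EME1 (0.21), FANCI (0.16), RAD54B (0.15), PALB2 (0.14), FANCB (0.14) and BARD1 (0.12) upward and RAD51C (−0.24) downward. This comparison uses other arrays than A50 against Con. RAD54L, RAD54B, PALB2, FANCB and RMI1 rose in both (5 of 8 in each, 62.5%), and NBN, RAD51AP1 and RAD51C fell in both, which is 75% of the 4 falls in A50 and 100% of the 3 in C+50 against C+0. Over all genes, the shared rises were 56% of those in A50 and 54.7% of those in C+50 against C+0, and the shared falls 59.3% and 59.5%. With median scaling 6 genes were called (4 higher, 2 lower, where 2.56% of all probes were higher and 2.16% lower), namely RAD54L, RMI1, EME1, PALB2, NBN and RAD51AP1.

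The reverse addition, cisplatin on top of 50 µmol/L veliparib, gave no calls. None of the 27 was called in C+50 against A50, where 0.492% of all genes were, and 7 had an unadjusted p under 0.05, 6 of them higher. The largest differences were 0.14 ± 0.04 for FANCB (higher in 9 of 9 lines, adjusted p = 0.0588), 0.14 ± 0.04 for RAD54L (adjusted p = 0.113) and 0.12 ± 0.04 for BARD1 (adjusted p = 0.143). Whether C+50 departed from the added changes of A50 and C+0 was tested as well. A departure was called for none of the 27 genes (0.00647% of all genes). The departures lay between −0.13 and 0.15, and 5 had an unadjusted p under 0.05. The highest departure was that of FANCI (0.15). FANCE, named for its direction and not its size, had a departure of −0.12 ± 0.05 (adjusted p = 0.581). It was lower than the sum in all 9 lines, but is not told apart from 0 after adjustment.

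The study's table of IC50 values marks 5 lines (H146, H187, H209, H526 and DMS153) in which veliparib potentiated a chemotherapy agent, not necessarily cisplatin, which leaves 4 others. In these 5 lines C+50 changed 12 of the 27 genes relative to Con (8 higher, 4 lower, where 11.6% of all genes were called), and in the 4 other lines it also changed 12 (8 higher, 4 lower, where 13.1% were called). The difference between the line groups was tested directly and passed for none of the 27 genes (0% of all genes, 3 with an unadjusted p under 0.05). The values, potentiated minus other lines, ran from −0.17 ± 0.08 for RMI1 (adjusted p = 0.63) to 0.25 ± 0.08 for BRCA1 (adjusted p = 0.501). BRCA1 had the larger fall in the 4 other lines, though with standard errors of this size neither value is told apart from 0 after adjustment.

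Radiation at 2 Gy changed none of the 27 genes over the 9 lines, where 0.75% of all genes were called (3 of the 27 with an unadjusted p under 0.05). Among the representing probes, FANCI (0.11 ± 0.04, adjusted p = 0.242) and FANCB (0.10 ± 0.04, adjusted p = 0.199) had the largest values. The second FANCB probe, also not called, had a mean log2 signal of 7.25 in Rad and 7.13 in Con. In the 6 H lines FANCI, the ubiquitinated partner of FANCD2, rose by 0.21 ± 0.05 (adjusted p = 0.00548), between 0.04 in H209 and 0.29 in H69 and H187. By representing probe, FANCI was the only 1 of the 27 genes called there (3.7%), which is no more than the 4.45% of all genes called. Counted by probe, 2 of 40 were higher in the H lines, and the other was the second FANCB probe, described among the flagged results. In the 3 DMS lines FANCI gave −0.07 ± 0.07 (adjusted p = 0.859). The difference between the line groups for FANCI was 0.28 ± 0.09 and did not pass (adjusted p = 0.0636), and no gene's representing probe did (2.41% of all genes, 10 of the 27 with an unadjusted p under 0.05). With median scaling of the arrays some genes did pass, all higher, as counted in the last paragraph.

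Lines differed more than treatments. The cell line accounted for a median of 89.2% of the sum of squares of the 27 genes over the 63 arrays and the treatment for 4.42%, against 92.0% and 1.70% over all genes, and the treatment share did not exceed the line share in any of the 27. NBN had the largest treatment share (18.8%), followed by FANCB (16.4%) and EME1 (12.7%). In Con, the widest range over lines was that of UBE2T, 2.92 log2 units between 9.36 in H146 and 12.27 in H187. RAD51AP1 ranged over 2.86 units because DMS53 stood at 12.57 and the other 8 lines at 9.71 to 10.36. BLM ranged over 2.26 units, with H526 at 9.52 and the others at 7.26 to 8.35. BARD1 (1.93, highest in DMS153), RAD51C (1.57, highest in DMS114) and MRE11 (1.48, highest in H526) followed. RAD52 and BRIP1 had the smallest ranges (0.23 each). Their probes were the dimmest of the measured genes and were detected on 9 and 35 of the 63 arrays. Such narrow ranges may therefore reflect background signal. H526 held the highest Con level of 6 of the 27 genes and DMS53 the lowest of 7.

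**Figure D4:**
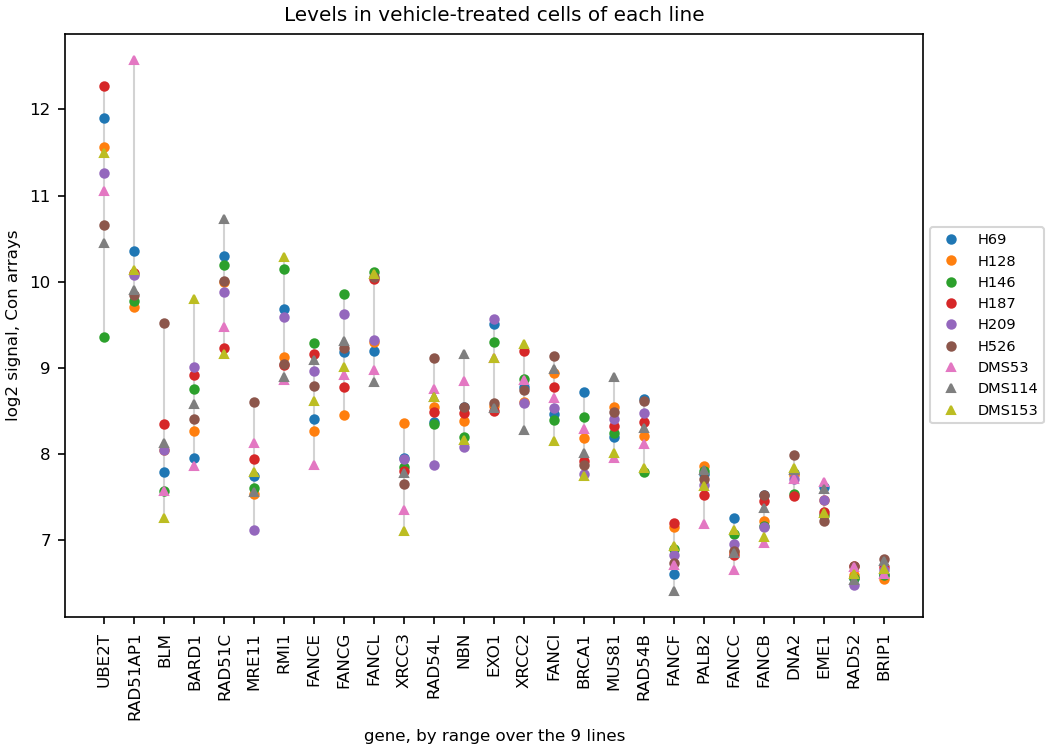
Log2 signal in Con (vertical axis) of the 27 genes in each of 9 lines (coloured points, circles for H lines and triangles for DMS lines), ordered from the widest range on the left to the narrowest. Single lines stand apart for RAD51AP1 (DMS53) and BLM (H526), and heights are not comparable between genes because probes differ in brightness.

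The Con levels were then set against the cisplatin data of the lines. None of the 27 genes differed in Con between the 5 potentiated lines and the 4 others (0.00647% of all genes, 4 of the 27 with an unadjusted p under 0.05), with differences from −0.64 to 0.84. None followed the cisplatin concentration of the line (0% of all genes, 4 of the 27 with an unadjusted p under 0.05), with slopes from −0.28 to 0.15 log2 units per doubling of the concentration. With 9 arrays, both comparisons can show only large differences.

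A further list of 42 recombination and Fanconi genes, of which 40 were measured, was counted beside them. In C+50 it had 7 genes higher and 8 lower than in Con (37.5%, where 22.6% of all genes were called), in A50 5 and 5 (25%, where 15.1% were), and in C+0, C+5, A5 and Rad none, with medians between −0.03 and 0.03. SFR1 (−0.25 ± 0.06, adjusted p = 0.00225), which forms a recombination accessory complex with SWI5, fell in C+50. FAN1, a crosslink nuclease (0.22 ± 0.04, adjusted p = 0.000128), and TOP3A, the topoisomerase that acts with BLM (0.22 ± 0.06, adjusted p = 0.00412), rose. In A50, RMI2, another subunit of the BLM complex, rose by 0.18 (adjusted p = 0.00203), while UIMC1, which recruits BRCA1 to ubiquitin chains, and SWI5 fell by 0.16 each (adjusted p = 0.00779 and 0.00372). RMI2 also rose in C+50 (0.14, adjusted p = 0.0166), a value chosen after it was seen.

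Cell cycle genes moved in the same arrays. Of 26 mitosis genes, none was higher and 24 were lower in A50 (median −0.35), 22 lower in C+0 (−0.28), 24 lower in C+5 (−0.32) and 24 lower in C+50 (−0.44) than in Con, where 8.32%, 1.36%, 1.61% and 12.1% of all genes were lower in that order. Of 23 replication licensing genes, 9 were higher and 2 lower in C+50 (47.8%, where 22.6% of all genes were called, median 0.09), and 3 were higher and 1 lower in A50 (17.4%, where 15.1% were, median 0.03). In C+0, 3 of the licensing genes were higher and 0 lower (13%, where 1.87% of all genes were called, median 0.08). In C+5, 4 were higher and 0 lower (17.4%, where 2.41% were, median 0.10). Of 18 nucleotide excision repair genes, 4 were higher and 2 lower in C+50 (33.3%, where 22.6% were, median 0.02). The part of the cell cycle in the changes of the recombination and Fanconi genes was not tested.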

How the data were processed

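The 63 Illumina HT-12 v4 arrays, 1 per culture, were processed by the authors in GenomeStudio 2010.3. They deposited a linear intensity for each probe in an unnormalized table and in a quantile-normalized one, and the deposited p-value is the software's detection p against control probes. Whether background was subtracted is not given in the sources used here.

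Intensities before normalization were quantile normalized in limma 3.58.1 (R 4.3.3) and log2 transformed, with no background correction. Probes were retained where at least 4 arrays gave a detection p under 0.05 (30716 of 47217, of which 21620 had 1 symbol, 4 several and 9092 none used here). Models were fitted over all 63 arrays in which each cell line had its own fixed term (lmFit, eBayes), and p-values were adjusted by Benjamini-Hochberg over all kept probes. A call means an adjusted p under 0.05. Line groups were compared by interaction terms, and baselines on the 9 Con arrays. Lists are described by counts and medians. The line pairs the arrays, because same-numbered arrays come from the same line: their deviations from the condition means correlated at 0.928 to 0.982. No arrays were duplicates. Alternatives were neqc, the authors' values, median scaling, both filters, probe means, each line left out, no block, only the compared arrays and another set of potentiated lines. The BeadChip of an array is not given in the sources used here, so no block by chip was fitted. Exposure times differ between the labels and the methods and are not stated here.

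Full values were given for up to 6 called genes of largest change in A50, C+0 and C+50, up to 3 in other comparisons, and for the 6 widest and 2 narrowest baseline ranges. The members and lists were chosen with earlier results of these data known. Figures were drawn with matplotlib 3.10.9.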

Additional observations from a re-analysis of the deposited data

Results flagged for a closer look

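Among 29 sets of 9 line values of the named genes, 4 held a line apart from the others by Dixon's criterion. The sets share genes and arrays, and most baseline sets were chosen for their wide range. No chance rate can therefore be set beside this count. RAD54L rose by 0.73 in DMS53 in C+5 against Con, where the other lines lay between −0.03 and 0.31. NBN fell by only −0.16 in H128 in C+50 against C+0, where the others lay between −0.65 and −0.24. In Con, RAD51AP1 stood at 12.57 in DMS53, where the others lay between 9.71 and 10.36, and BLM stood at 9.52 in H526, where the others lay between 7.26 and 8.35.

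The second FANCB probe responded differently to radiation in H and in DMS lines. The difference was 0.23 ± 0.07 (limma interaction term, adjusted p = 0.0452), from 0.20 ± 0.04 in the 6 H lines (adjusted p = 0.000288) and −0.03 ± 0.06 in the 3 DMS lines (adjusted p = 0.947). The first FANCB probe gave a difference of −0.06 ± 0.08 (adjusted p = 0.822), so the 2 probes of the gene did not show the same pattern. Without regard to direction, 3.32% of all probes were called for this difference.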

How the results depend on the processing

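No named change turned its direction under any alternative run. With median scaling, 5 genes were called in A50 against Con (12.2% of all probes), 1 in C+0 (0.733%) and 0 in C+5 (0.189%). In C+50, 6 were called against C+0 (4.71%) and 1 against A50 (0.309%). For the radiation difference between H and DMS lines 9 were called, all higher. The share of all probes is not given for that run, so the 9 cannot be read as particular to these genes. Counts of the other runs below also lack that share and show only the dependence on processing. Of 21 named changes, 12 still passed with median scaling and 9 did not (the cause was not tested). Without the line as a replicate block, 0 genes were called in A50, C+0, C+5, C+50 and C+50 against C+0, and none of the 21 named changes passed. Fitting only the compared arrays gave 0 genes in C+0, 2 in C+5 and 2 in C+50 against A50. The stricter filter gave 1 gene in C+50 against A50 and 1 for the radiation difference, and probe means gave 1 gene in Rad (causes not tested). Of the named changes, FANCB in C+0 did not pass with probe means. Leaving out each line in turn gave 10 to 13 genes in A50, 0 to 3 in C+0, 1 to 6 in C+5, 15 to 16 in C+50, 10 to 13 in C+50 against C+0, 0 to 1 in C+50 against A50 and 0 to 1 for the radiation difference. All 21 named changes passed with neqc, the authors' values, no filter and the stricter filter, and neqc enlarged FANCB in C+50 to 0.52 and in C+0 to 0.28. Signals near background compress changes of the dim probes (FANCB, FANCC, BRIP1, RAD52), and the number of lines limits the precision.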
